A study of Mus musculus with 12 samples.

Results

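The genes described here encode the nuclear part of oxidative phosphorylation (OXPHOS), the respiratory chain and ATP synthase of mitochondria. They were chosen by symbol: protein-coding genes of the Nduf, Sdh, Uqcr, Cox4 to Cox8 and Atp5 families, 91 of the 32121 genes counted. By complex they were 38 complex I genes, 8 complex I assembly factors (Ndufaf), 4 complex II genes, 8 of complex III, 16 of complex IV and 17 of complex V. The rule leaves out Cox4i1 and Cyc1, whose symbols have another form, and the table held no genes of the mitochondrial genome. Of the 91, 88 had enough counts to be tested. Cox7b2, Cox8b and Cox8c, isoforms of complex IV subunits, had 1, 4 and 2 counts in all and were not tested.

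RNA came from spleens of C57BL/6 mice, with 2 pieces from each of 6 animals, in a study that asked how alike the pieces of a spleen are as a measure of clonality. In 3 animals (SB animals 1 to 3) the genotype combined VEC-Cre, the SB Transposase and onc2, that is, a Cre recombinase driven by an endothelial promoter, the Sleeping Beauty transposase and a mutagenic transposon. The other 3 animals (controls 1 to 3) were labelled WT and are taken to carry neither the Cre nor the transposase nor the transposon, so the parts of these elements cannot be told apart. No age was given. VEC-Cre is directed to the endothelium and, as is known of this promoter, to the blood cells that arise from it, whereas whole pieces of spleen were sequenced.

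Electrons from NADH enter the chain at complex I and those from succinate at complex II. They pass through complex III and cytochrome c to complex IV, where oxygen is reduced, and the proton gradient built on the way drives complex V, the ATP synthase. The subunits come from both the nuclear and the mitochondrial genome, and several nuclear subunits have isoforms that are restricted to muscle, testis or other tissues. In blood formation, dividing progenitors and erythroid precursors rely on mitochondria, which also supply heme.

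Libraries held 14320833 to 22031026 counts. SB spleens differed from control spleens in their cell type markers, each list given as the sum of its genes in CPM (counts scaled to a common library size). Proliferation genes stood at 2245 to 4673 CPM in the 3 SB animals and 561.4 to 1128 CPM in controls, with 8 of 10 higher. B cell genes stood at 55.39 to 112.7 against 7370 to 8291 CPM, with 8 of 8 lower, and 5 of 8 T cell genes were lower. Of the other lists, 3 of 9 erythroid, 3 of 8 megakaryocyte, 4 of 5 promyelocyte and 2 of 6 endothelial genes were higher. Over all genes tested, 8.59% were higher and 9.75% lower. For globin, neutrophil and macrophage lists no gene passed the test. Of the muscle, adipose and pancreas lists only 1 gene each was abundant enough to test, and Fabp4, which is also made by endothelium and macrophages, was higher. No listed marker was at 0 in every library. In whole spleen, fewer cells of a type and less RNA per cell cannot be told apart, and the part these markers have in the results below was not tested. Xist, the RNA of the inactive X chromosome, reached 2220 CPM in SB animal 1 and 994 CPM in SB animal 2, and at most 2.46 CPM in the other 4 animals, so sex was not balanced between genotypes.

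Promoter sequences place the genes in their setting. RefSeq promoters of the GRCm38.p6 build, from 250 bases before to 50 after the start site, were found for 76 of the 91 genes. They were searched on both strands for the cores bound by factors known to act on respiratory genes, each counted separately. The NRF1 core, the run of 10 capitals in the Cox6a1 line below, lay in 7 of 76 promoters (9.2%), against 1.8% of 13905 protein-coding promoters. The ETS core CCGGAAG, bound by NRF2/GABP among others, lay in 18 (23.7%), against 15.5%. The YY1 core AAGATGG lay in 12 (15.8%), against 7.6%. Most of these YY1 matches lay after the start site, on the strand of the gene, as in Ndufa3 and Ndufs4 (positions 22 and 35 relative to the start site). A match describes letters and not binding. Cox6b2 and Cox6b1 are shown because they are isoforms of a single subunit that behaved unlike each other, Uqcr11 as a called gene with an ETS core, and Cox6a1 because it held both the NRF1 and the ETS core. Each line ends at the last base before the start site and is given on the strand of the gene, 5′ to 3′, with NRF1 and ETS cores in capitals (CTTCCGG is the ETS core on the opposite strand).
Cox6b2, chr7:4753095-4753214, minus strand: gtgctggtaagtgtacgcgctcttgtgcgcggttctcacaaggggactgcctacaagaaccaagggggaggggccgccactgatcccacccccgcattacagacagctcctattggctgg
Cox6b1, chr7:30626115-30626174, minus strand: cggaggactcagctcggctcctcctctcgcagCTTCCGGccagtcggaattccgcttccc
Uqcr11, chr10:80406822-80406901, minus strand: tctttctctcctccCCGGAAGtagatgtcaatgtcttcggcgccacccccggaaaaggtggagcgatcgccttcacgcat
Cox6a1, chr5:115348959-115349138, minus strand: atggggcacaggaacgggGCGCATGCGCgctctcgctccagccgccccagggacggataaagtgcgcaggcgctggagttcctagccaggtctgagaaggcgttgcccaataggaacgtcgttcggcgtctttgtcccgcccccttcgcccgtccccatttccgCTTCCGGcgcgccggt
None of the 3 cores was found in the whole promoter entry of Cox6b2. Among the genes called higher below, a core was found only in Uqcr11 (ETS) and Uqcrc1 (NRF1). Atp5k, like Cox6a1 not called, held both the NRF1 and the ETS core as well.

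OXPHOS RNA made up more of the SB than of the control spleens. Summed over the 91 genes it stood at 9040, 8730 and 9336 CPM in SB animals 1 to 3 and at 6805, 7084 and 6603 CPM in controls 1 to 3. The groups did not overlap, and the means, 9035 ± 303.2 and 6831 ± 241.1 CPM (SD, n = 3 each), differed 1.32-fold. As a percentage of all counts, with no further scaling, it was 0.962, 0.777 and 0.988% in SB animals 1 to 3 and 0.671, 0.702 and 0.674% in controls. By complex the sums differed 1.22-fold for complex I, 1.1-fold for its assembly factors, 1.21-fold for complex II, 1.26-fold for III, 1.31-fold for IV and 1.47-fold for V. A few genes weigh heavily in these sums. The complex V sums averaged 3690 CPM in SB and 2515 CPM in controls. Of these, Atp5a1 gave 1062 and 732.1 CPM and Atp5b 1194 and 649.3 CPM. In complex IV, with 1083 and 823.8 CPM, Cox6b2 gave 93.41 and 9.79 CPM. The sums of the assembly factors overlapped, with SB animal 2 at 125.4 CPM and the controls at 137.6 to 143.1 CPM, and those of the 5 complexes did not. Among single genes, 14 of 88 (15.9%) were called higher in SB, at an adjusted p under 0.05 in edgeR's quasi-likelihood test over all genes, and 8.59% of the 17328 genes tested were called higher. None was called lower, where 9.75% of all genes were (18.3% in either direction). At an unadjusted p under 0.05, 34 OXPHOS genes were higher and 1, Cox7a2l, was lower, together 39.8%, near the 35.6% of all genes. DESeq2 called 31 higher and 1, again Cox7a2l, lower, together 36.4%, near the 32.5% of all genes (16.8% higher).

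The median log2 change of the 88 genes was 0.38, against 0.11 for all genes tested, and 75 of the 88 changes were above 0. With a median of 0.11, most of all genes tested were above 0 too. Their share was not counted, so the 75 cannot be set against an even split. Each SB animal showed it: set against the control mean, the median log2 difference of the OXPHOS genes was 0.38, 0.29 and 0.28 in SB animals 1 to 3, and that of all genes was -0.06, -0.04 and -0.03. In 28 of the 88 genes every SB library lay above every control library, which was so for 13.0% of all genes. These were the 14 called genes and 14 others, among them Atp5a1, Cox6a1, Cox8a and Sdhd. In 1 gene, Cox7a2l, every SB library lay below every control library, against 16.6% of all genes. The p-values compare 3 animals a genotype. Leaving out any 1 of controls 1, 2 or 3 left Cox6b2 as the only OXPHOS gene called, where 3.07 to 4.56% of all genes were. Leaving out SB animal 2 gave 27 higher and 1 lower, 31.8%, where 35.7% of all genes were called.

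**Figure D1:**
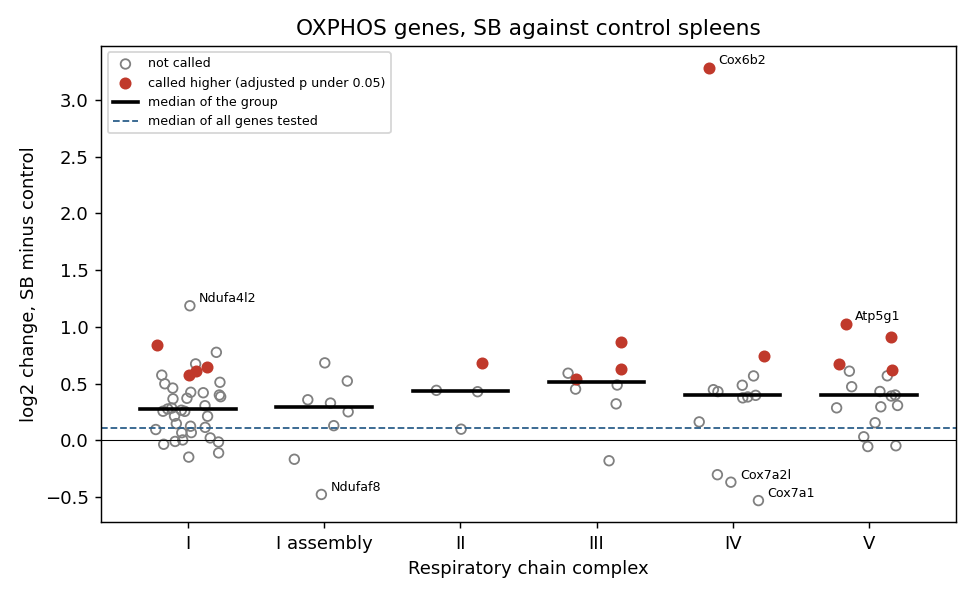
The log2 change, SB minus control, is plotted on the vertical axis for the 88 tested genes by complex, 1 point per gene, with filled points for called genes, a bar at the median of each complex and a dashed line at the median of all genes tested (0.11). Cox6b2 stands alone at 3.28, the medians of the complexes lie between 0.28 and 0.51, and no called gene lies below 0.

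Complex I takes electrons from NADH. Of its 38 genes, 4 were called higher, where 8.59% of all genes tested were, so this count is near the share of all genes. A change above 0 was seen in 33, and the median log2 change was 0.28, against 0.11 for all genes. Ndufa10, an accessory subunit on chromosome 1, stood at 143, 125.5 and 141.3 CPM in SB animals 1 to 3 and at 79.35, 78.36 and 76.96 CPM in the controls. The control values were nearly level and all SB values lay above them, a 1.75-fold difference (log2 change 0.84, SE 0.13, adjusted p = 0.0124 in edgeR's test). Ndufv1, the core subunit that binds NADH and flavin mononucleotide, stood at 151.1, 155.1 and 162 CPM in the 3 SB animals and at 111, 103.2 and 98.93 CPM in controls. The groups did not overlap (log2 change 0.61, SE 0.13, adjusted p = 0.028). The accessory subunits Ndufa8 (log2 change 0.64, adjusted p = 0.0448) and Ndufc2 (0.57, adjusted p = 0.0464) were called too.

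The accessory subunit Ndufa12 and Ndufv2, the partner of Ndufv1, just missed the threshold, with log2 changes of 0.78 and 0.50 and adjusted p = 0.0518 and 0.0521. The subunit of highest level per length, Ndufa2, had a mean of 124 RPKM (CPM per kilobase of exon) in SB and 128 RPKM in controls, and its groups overlapped. Ndufa13 had the lowest change among complex I genes, a log2 value of -0.15 (adjusted p = 0.583). Ndufa4l2, a paralog of Ndufa4 known to be induced by low oxygen, had the highest log2 change of the complex I symbols, 1.19, without a call (adjusted p = 0.098). It stood at 6.238, 5.261 and 2.556 CPM in SB animals 1 to 3 and at 2.034, 2.039 and 2.248 CPM in controls. SB animal 3 lay close to the controls and SB animals 1 and 2 above them. Ndufa4 itself, which is counted here by symbol although it is now placed in complex IV, had a log2 change of 0.37 (adjusted p = 0.181).

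The Ndufaf factors build complex I and do not remain in it. None of the 8 was called, at the unadjusted threshold of 0.05 none passed either, and their median log2 change was 0.29. Ndufaf2 had the highest value, a log2 change of 0.68 (adjusted p = 0.24), and 65.6% of its exon length overlaps another gene. Ndufaf8 had the lowest, -0.48 (adjusted p = 0.176), and it was called lower when SB animal 1 was left out.

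Complex II is also an enzyme of the citric acid cycle and is encoded in the nucleus alone. Of its 4 genes, Sdhc, a membrane anchor, was called higher, where 8.59% of all genes were. It stood at 94.69, 119 and 104 CPM in the 3 SB animals and at 65.05, 72.54 and 65.45 CPM in controls. The groups did not overlap (log2 change 0.68, SE 0.15, adjusted p = 0.0294). The other anchor, Sdhd, which had the highest level per length of the complex (122 against 91.9 RPKM), and the iron-sulfur subunit Sdhb had log2 changes of 0.44 and 0.43 without a call. The flavoprotein Sdha had a log2 change of 0.10 (adjusted p = 0.766), and its SB values, 245, 275.8 and 389 CPM, spanned those of the controls, 287.2 to 290.7 CPM.

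Complex III passes electrons from ubiquinol to cytochrome c. Of its 8 genes, 3 were called higher, where 8.59% of all genes were. With 7 of 8 above 0, it had the highest median log2 change of the complexes, 0.51. Uqcr11, a small accessory subunit, stood at 30.83, 26.84 and 25.2 CPM in the 3 SB animals and at 15.06, 17.23 and 14.24 CPM in controls. All SB values lay above all control values (log2 change 0.87, SE 0.19, adjusted p = 0.0314). Uqcr10, likewise small, had a log2 change of 0.63 (adjusted p = 0.0454), and the core protein Uqcrc1 one of 0.54 (adjusted p = 0.0481). Uqcrh, the hinge protein near cytochrome c1 and the complex III gene of highest level per length, was the exception, at 159.3, 163 and 161 CPM in SB animals against 188.8, 192.7 and 178.3 CPM in controls. Its animal means did not overlap, with SB lower, but single libraries did, and the change was not called (log2 change -0.18, adjusted p = 0.366).

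Complex IV reduces oxygen, and it held the largest change of all the genes. Cox6b2, known as the testis isoform of the subunit Cox6b, stood at 57.95, 87.42 and 134.9 CPM in SB animals 1 to 3 and at 11.75, 11.84 and 5.786 CPM in controls. The lowest SB animal was several times above the highest control, and the means differed 9.54-fold (log2 change 3.28, SE 0.44, adjusted p = 0.00832). By library it ran from 943 to 3097 counts in SB and was at least 69 counts in controls. Per length it went from a mean of 8.84 RPKM in controls, rank 72 of the 91 genes, to 84.3 RPKM in SB, rank 18. It was also the only OXPHOS gene called in each of the 6 fits that left out 1 animal, with log2 changes from 2.93 to 3.53 and adjusted p up to 0.0496.

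The usual isoform, Cox6b1, stood at 134.9, 152.2 and 125.8 CPM in the 3 SB animals and at 101.8, 119.1 and 103 CPM in controls, and was not called (log2 change 0.38, adjusted p = 0.128). Its animals did not overlap between the groups, while its libraries did. As a percentage of Cox6b1 RPKM, Cox6b2 came to 27.4, 36.7 and 68.5% in SB animals 1 to 3 and to 7.37, 6.35 and 3.59% in controls 1 to 3. No run of 50 bases of the Cox6b2 transcript occurred in another gene, and no exon of another gene overlapped it. Cox6b2 lies at chr7:4751792-4753094 on the minus strand (GRCm38). Of the 8 tested genes around it, 4 on either side, 2 were called higher as well, where 8.59% of all genes were. They were the histone methyltransferase gene Kmt5c (log2 change 1.28, adjusted p = 0.0367) and Tmem238 (1.13, adjusted p = 0.0363), and both changed by less than Cox6b2.

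**Figure D2:**
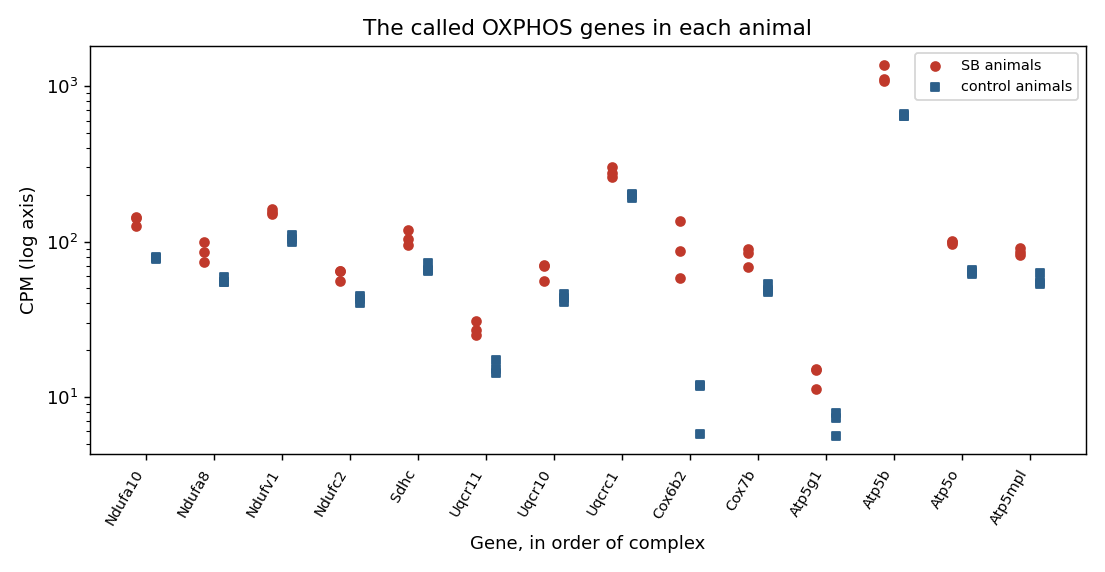
CPM on a log axis is plotted for each of the 14 called genes, 1 point per animal, with SB animals as circles and controls as squares. In each gene the 3 SB animals lie above the 3 controls, and Cox6b2 has the widest gap and the widest spread among SB animals.

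The second called gene of complex IV was Cox7b, an X-linked small subunit, at 90.19, 68.27 and 84.36 CPM in the 3 SB animals and 47.32, 53.04 and 48.45 CPM in controls. The groups did not overlap (log2 change 0.74, SE 0.17, adjusted p = 0.0313). Sex was not balanced between the genotypes, and its part in the Cox7b change was not tested. Cox8a, the complex IV gene of highest level per length (274 against 213 RPKM), had a log2 change of 0.40 without a call (adjusted p = 0.0928). In the opposite direction, Cox7a2l, a Cox7a-related protein that helps to join complexes III and IV into supercomplexes, stood at 121.4, 121.8 and 121.7 CPM in the 3 SB animals and at 156.7, 162 and 163.1 CPM in controls. Both groups were tight and did not overlap, but the change was not called in edgeR's test (log2 change -0.37, SE 0.13, adjusted p = 0.0931).

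Cox7a2, a paralog of Cox7a2l found in complex IV of most tissues, had a log2 change of 0.57 without a call (adjusted p = 0.0657). Cox7a2l RPKM came to 109, 105 and 141% of Cox7a2 RPKM in SB animals 1 to 3 and to 219, 217 and 230% in controls. The SB percentages lay below all control percentages. Cox7a2l shared 19.8% of its 50-base runs with the pseudogene Gm6969. The muscle isoforms were scarce. Cox6a2 stood at 0.2218, 5.501 and 1.495 CPM in SB animals 1 to 3, on either side of the controls at 2.155, 2.598 and 1.799 CPM, and the sign of its uncalled change (0.16, adjusted p = 0.92) turned without SB animal 2 (-1.30). Cox7a1, with the lowest log2 change of all 88 genes (-0.53, adjusted p = 0.597), had 44 counts in the SB animals and 57 in the controls.

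**Figure D3:**
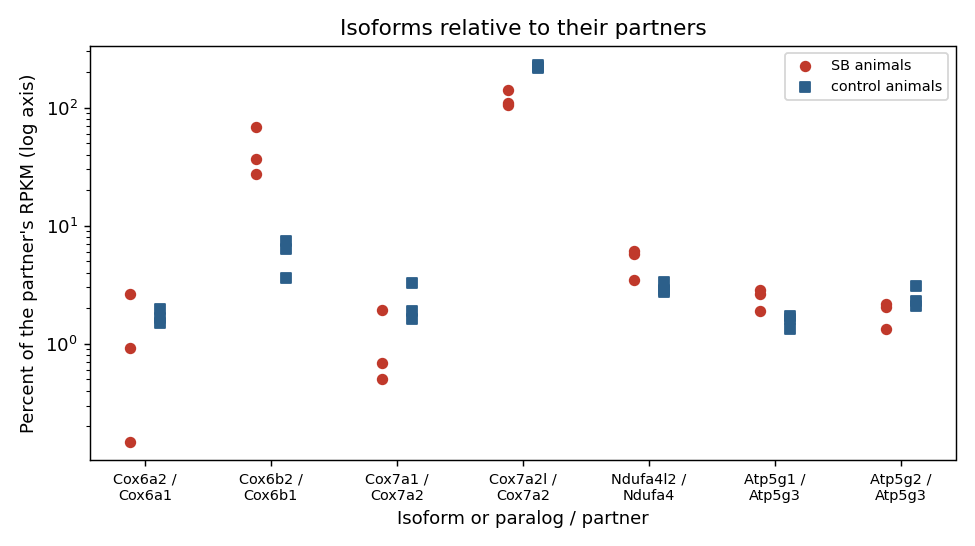
RPKM of an isoform or paralog is plotted as a percentage of the RPKM of its partner, on a log axis, 1 point per animal, for 7 pairs. SB animals lie above the controls for Cox6b2 against Cox6b1, for Atp5g1 against Atp5g3 and, by a narrow margin, for Ndufa4l2 against Ndufa4, and below them for Cox7a2l against Cox7a2.

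Complex V is the ATP synthase. Of its 17 genes, 4 were called higher, where 8.59% of all genes were. A change above 0 was seen in 15, with a median log2 change of 0.40. Atp5b, the catalytic beta subunit, stood at 1116, 1085 and 1380 CPM in the 3 SB animals and at 643.3, 665.2 and 639.3 CPM in controls. The controls were nearly level and the groups far apart, by 1.84-fold (log2 change 0.91, SE 0.19, adjusted p = 0.0249). Its partner Atp5a1, the alpha subunit and the OXPHOS gene of highest level per length in both genotypes (339 against 234 RPKM), stood at 1067, 921.9 and 1197 CPM against 736.9, 752.9 and 706.5 CPM. Here too the groups did not overlap, but the change was not called (log2 change 0.57, adjusted p = 0.0851).

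Atp5o, which joins the stator stalk to the catalytic head, stood at 99.81, 101.2 and 96.29 CPM in the 3 SB animals and at 63.56, 65.4 and 62.18 CPM in controls. Its groups were tight and apart (log2 change 0.67, SE 0.13, adjusted p = 0.0193), although 50.3% of its 50-base runs are shared with other gene entries. The entry sharing most is also named Atp5o and overlaps it on the same strand. How reads were divided between these entries is not known, and the value of Atp5o is uncertain to that extent. Atp5mpl, a small membrane subunit, had a log2 change of 0.62 (adjusted p = 0.0335). The membrane ring is made of a protein encoded by Atp5g1, Atp5g2 and Atp5g3, which differ in the part that is cut off on import. Atp5g1 stood at 15.11, 11.27 and 14.93 CPM in the 3 SB animals and at 7.255, 7.892 and 5.606 CPM in controls. All SB values lay above the controls (log2 change 1.03, SE 0.27, adjusted p = 0.0483). Atp5g3, at 115 against 90 RPKM the main source of the ring protein RNA, had a log2 change of 0.39 without a call (adjusted p = 0.11), and Atp5g1 came to 1.88 to 2.86% of it in SB and 1.34 to 1.71% in controls. Atp5g2 had a log2 change of -0.05 (adjusted p = 0.93) and shares 87.4% of its 50-base runs with other genes. Atp5s, a coupling factor and not a subunit, had a log2 change of 0.31 (adjusted p = 0.361), and Atp5l had the lowest of the complex, -0.05 (adjusted p = 0.871).

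Pathways around the chain were looked at in the same test. Of 40 respiratory chain genes outside the symbol rule, mostly assembly factors, 2 were called higher and 1 lower, with a median log2 change of 0.16. Atpif1, the inhibitor protein of the ATP synthase, stood at 158.6, 154.4 and 115.9 CPM in the 3 SB animals and at 60.68, 50.11 and 34.93 CPM in controls. The groups were far apart (log2 change 1.59, SE 0.26, adjusted p = 0.0129). Uqcc2, a complex III assembly factor, was higher (0.79, adjusted p = 0.0355), and Tmem126b, a complex I assembly factor, was lower (-0.80, adjusted p = 0.0344). Of 16 citric acid cycle and pyruvate dehydrogenase genes, 4 were higher, among them Idh3a, Dld and Dlat with log2 changes of 1.20, 0.58 and 0.76, and the median of the 16 was 0.36. Of 78 mitochondrial ribosome genes, 6 were higher, Mrpl20 with the smallest adjusted p (0.89, adjusted p = 0.0115), and their median was 0.37. Of 23 import genes 1 was higher, the receptor Tomm20 (0.88, adjusted p = 0.0331), with a median of 0.37. The shares called higher, 5% of the other respiratory chain genes, 7.69% of the ribosome genes and 4.35% of the import genes, were below the 8.59% of all genes, and that of the citric acid cycle list was 25%.

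Of 19 regulators of mitochondrial genes tested, 2 (10.5%) were called lower, near the 9.75% of all genes, and the other 17 were not called. Their median log2 change was 0.17. Ppargc1a, a coactivator known to raise respiratory gene expression, had 1, 0 and 4 counts in SB animals 1 to 3 and 108, 83 and 133 counts in controls. It was near 0 in the SB animals (adjusted p = 0.00545 in edgeR's test). After scaling to the total counts of each group, the control to SB ratio was 74, with a 95% counting interval of 31.4 to 229. This interval pools the reads of each group and leaves out the spread between animals. Polg2, the accessory subunit of the mitochondrial DNA polymerase, had a log2 change of -0.92 (adjusted p = 0.0226). Esrra and Tfam had log2 changes of -0.70 and -0.64 without a call (adjusted p = 0.0586 and 0.0682), and Nrf1 and Gabpa had 0.17 each.

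The lists differed by animal. In SB animal 2 the median log2 difference from the control mean was 0.29 for OXPHOS genes, 0.09 for the citric acid cycle, 0.06 for the mitochondrial ribosome and 0.09 for import. In SB animals 1 and 3 the medians of these other lists were 0.45 and 0.55, 0.47 and 0.32, and 0.34 and 0.48. The difference between lists was not tested. SB animal 2 also had the highest sums of erythroid (11690 CPM, against 1606 and 4648 CPM in SB animals 1 and 3) and macrophage genes (9844 CPM, against 368.1 and 1121 CPM), whose part in this was not tested.

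**Figure D4:**
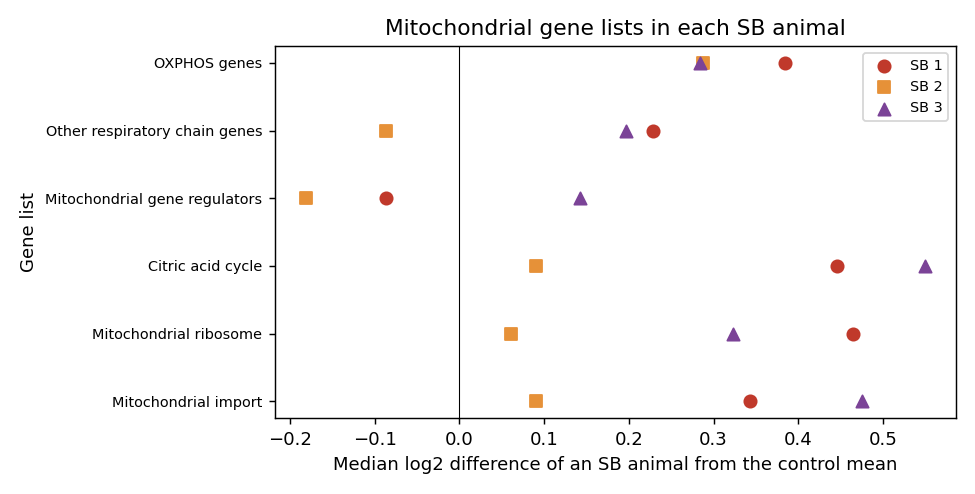
For each gene list on the vertical axis, the median log2 difference from the control mean is plotted on the horizontal axis, 1 point per SB animal. The OXPHOS points lie together between 0.28 and 0.38, while SB animal 2 lies at 0.09 or lower in each of the other lists.

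The SB animals also differed among themselves. In a test of equal means over the 3 animals of a genotype, with the spread between pieces of a spleen as its error, 25 of 88 (28.4%) differed among SB animals, where 71.1% of all genes tested did. The count included 7 of the 8 Ndufaf assembly factors, 10 complex I genes, 5 complex IV genes and 1 each of complexes II, III and V. In 15 of the 25, SB animal 1 was the highest. For 6 of the 7 assembly factors SB animal 1 was highest and SB animal 2 lowest, as for Ndufaf7 (35.16, 20.8 and 31.59 CPM in SB animals 1 to 3, adjusted p = 0.000563) and Ndufaf5 (15.64, 7.816 and 13.19 CPM, adjusted p = 0.00109). Ndufaf1 was highest in SB animal 3 (16.58, 19.42 and 26.94 CPM, adjusted p = 0.0047).

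The smallest adjusted p-values were those of Cox6a2 (2.57e-05), with its 24.8-fold range from SB animal 1 to SB animal 2, and Ndufb9 (9.83e-05). Ndufb9, an accessory subunit of complex I, stood at 84.32, 128.9 and 75.87 CPM in SB animals, against 56.69 to 64.88 CPM in controls. SB animal 2 was well above the others, and all SB values lay above the controls. Among controls, none of the 88 genes differed in edgeR's test, at an unadjusted p under 0.05 or in DESeq2. Of all genes, 0.524% did by edgeR, 6.87% at the unadjusted p and 2.03% in DESeq2. The highest control animal exceeded the lowest by a median of 1.12 times over the OXPHOS genes. These tests compare the spleens at hand and not genotypes.

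The pieces of a spleen were compared with the animal as a block. Over all 6 animals none of the 88 genes was called in edgeR's test, where 2.82% of all genes were. At an unadjusted p under 0.05, 10 passed (11.4%, against 24.1% of all genes), and DESeq2 called 2 (1208 of all genes). In SB animals none was called, where 0.0119% of all genes were, with 32 at an unadjusted p under 0.05 (36.4%, against 20.9% of all genes) and 4 in DESeq2 (297 of all genes). In controls 3 were called (3.41%), where 8.82% of all genes were. Cox6b2 was higher in piece 2, and the complex V stalk subunit Atp5c1 and the complex I subunit Ndufs4 were lower. Cox6b2 stood at 10.74, 6.125 and 3.693 CPM in piece 1 of controls 1 to 3 and at 12.47, 17.4 and 8.448 CPM in piece 2. Piece 2 was the higher one in each control, with a log2 change of 0.92. Atp5c1 went from 182.5, 205.4 and 190.2 CPM in piece 1 to 151.5, 171.6 and 157.4 CPM in piece 2, a fall in each control (log2 change -0.27). In the SB animals Atp5c1 was higher in piece 2 in each, with a log2 change of 0.09.

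With pieces numbered as labelled, the median difference of the OXPHOS genes between pieces had opposite signs in the genotypes. No position in the spleen is given, so whether piece 1 is the same region in each animal is not known, and exchanging the control numbers would give both genotypes the same sign. Their median log2 difference, piece 2 minus piece 1, was 0.38, 0.02 and 0.13 in SB animals 1 to 3, with 79, 47 and 76 of the 88 genes higher in piece 2. In controls 1 to 3 it was -0.08, -0.15 and -0.03, with 27, 18 and 38 genes higher. The medians of all genes lay between -0.03 and 0.01 in these animals. Genes and complexes did not all go with the median. In SB animal 1, Atp5b and Sdha were lower in piece 2, with log2 differences of -0.47 each. The complex V sum fell from 3815 to 3675 CPM in SB animal 1 and rose in SB animals 2 and 3. The complex II sum fell in SB animals 1 and 3 (642.1 to 576.6 and 807 to 778.2 CPM) and rose in SB animal 2. In the fit with both genotypes the median of the genotype difference was 0.26, and it was 0.16 without SB animal 1 and 0.39 without SB animal 2. In 15 of the 88 genes (17%) every SB animal was higher and every control lower in piece 2, which held for 3.32% of all genes, and in none was it the reverse, against 3.97% of all genes. For single genes the difference between genotypes was not called for any of the 88 by edgeR, where 1.23% of all genes were. At an unadjusted p under 0.05, 30 passed (34.1%, against 17.5% of all genes), and DESeq2 called 5 (511 of all genes). Globin RNA took 1.78 to 4.54% of counts in piece 1 of the controls and 3.76 to 6.2% in piece 2, and it was higher in piece 2 of each. In the SB animals it took 0.0849 to 3.32% in piece 1 and 0.091 to 3.83% in piece 2, and it was likewise higher in piece 2 of each. The part of globin in this was not tested. Without SB animal 2, 12 OXPHOS genes were called between SB pieces (725 of all genes) and 7 for the difference between genotypes (307 of all genes). Between control pieces, leaving out SB animal 1 gave 13 calls (3250 of all genes), leaving out control 1 gave 1 (1042), leaving out SB animal 3 gave 0 (804), and leaving out control 2 or control 3 gave 0 (0 of all genes).

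**Figure D5:**
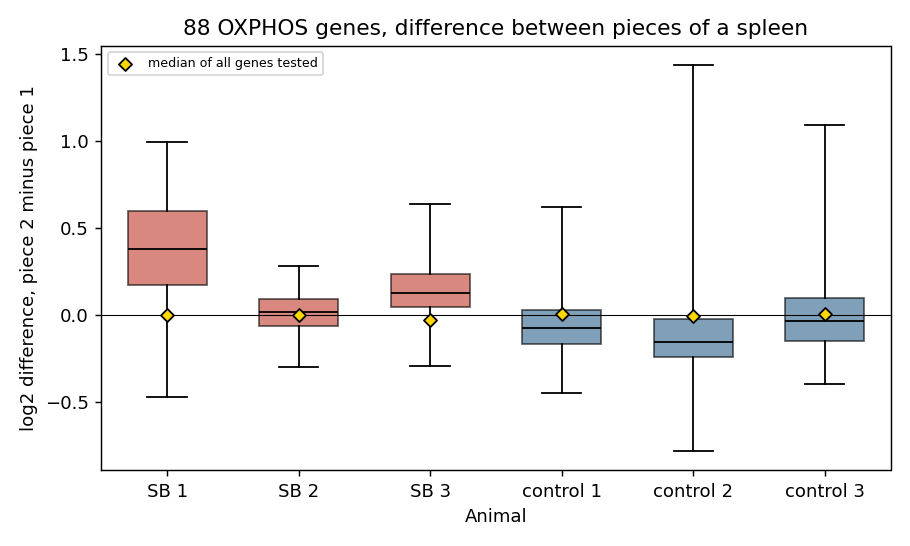
The log2 difference between piece 2 and piece 1 of a spleen is plotted on the vertical axis for the 88 tested OXPHOS genes in each animal, with boxes from the lower to the upper quartile, a line at the median, whiskers to the extremes and diamonds at the median of all genes tested. The medians lie above 0 in the 3 SB animals, most in SB animal 1 (0.38), and below 0 in the 3 controls.

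The choice of piece also bears on the genotype comparison. With piece 1 alone the median log2 change of the OXPHOS genes was 0.25, with 4 called higher (Atp5b, Cox6b2, Ndufa10 and Ndufv1) and Cox7a2l called lower. Together these were 5.75%, where 18.9% of all genes were called (9.25% higher), so the share called higher was below that of all genes. With piece 2 alone the median was 0.50 and 15 were called higher (17.2%), where 15.4% of all genes were called (7.02% higher).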

How the data were processed

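Poly-A RNA of 12 spleen pieces was sequenced without strand information, per the labels' protocols. The authors deposited counts of reads for each Ensembl gene; the whole numbers and unequal totals show no normalisation. STAR 2.5.3a and limma are named in the submitters' processing notes, with the builds mm10 and GRCm38; the counting mode is not given in the sources used here. Symbols, positions and exon lengths came from GENCODE M21 (GRCm38), which matched 32026 of 32121 genes.

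Genotypes were compared on counts summed over both pieces of an animal with edgeR 4.0.16 in R 4.3.3 (TMM, filterByExpr, robust quasi-likelihood test, two-sided, Benjamini-Hochberg adjusted p under 0.05 over all genes tested). Pieces were compared over the 12 single libraries, blocked by animal, and the animals of a genotype by an F test. Pieces are paired by the animal in their titles; their deviations from the group mean correlated at 0.933 to 0.949 in SB animals and 0.167 to 0.445 in controls. Sections A and B of controls are labelled pieces 1 and 2, with no position in the spleen, and SB animals were numbered in deposit order. Per-animal log2 differences use CPM plus 0.5, which understates changes of low genes. SE came from the F statistic. DESeq2 1.42.0 was an alternative.

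Genes, lists and tests were chosen with earlier results of these data known. Named were, per complex, up to 6 called genes in each direction, the gene of highest RPKM, those of largest rise and fall, tissue-restricted isoforms, and the genes of smallest adjusted p in the other tests. Genes just short of a call, Cox7a2l, partner isoforms and regulators without a call were named after their values were seen. Shared sequence was counted as runs of 50 bases of principal transcripts found in other genes: 47 genes shared any and 4 at least 50% (Atp5g2, Atp5l, Cox7c and Atp5o), and 31 had exons overlapping another gene. On simulated data the genotype test recovered 94% of 2-fold changes at a spread of 0.15 and 0% at the whole-table spread. Of 4-fold changes it recovered 100% and 22.5%, respectively.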

Additional observations from a re-analysis of the deposited data

Results flagged for a closer look

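With pieces numbered as labelled, the median difference of the OXPHOS genes between pieces of a spleen had opposite signs in the genotypes. No position is given, so piece 1 may not be the same region in each spleen, and exchanging the control numbers would give both genotypes the same sign. Averaged over animals, the median log2 difference of the OXPHOS genes, piece 2 minus piece 1, was 0.262 higher in SB than control animals. It was above 0 in 3 of 3 SB animals and below 0 in 3 of 3 controls. The difference of these medians was not tested. Uniform signs within each genotype were the rule for flagging this result, so they are no separate evidence for it. In SB animal 2 the median was 0.019, beside 0.003 for all genes, with 47 of the 88 genes higher. The median of the fitted genotype differences of single genes, 0.261, was 0.155 without SB animal 1 and 0.388 without SB animal 2. Atp5c1, the stalk subunit of the ATP synthase, had the same pattern in each animal, and its piece difference was higher in SB by 0.358 on the log2 scale. It was not called in edgeR's test of the difference between genotypes.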

How the results depend on the processing

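The median log2 change of the OXPHOS genes between genotypes was above 0 under every alternative run, from 0.254 (piece 1 only) to 0.501 (piece 2 only), and no result changed its sign once called. Against 14 higher (15.9%, with 8.59% of all genes higher) and 0 lower, library size alone gave 5 higher (5.68%), where 7.11% of all genes were higher. No filter on low counts gave 3 (3.3%), where 3.49% of all genes were higher. Piece 1 only gave 4 higher and 1 lower (5.75% together), where 9.25% of all genes were higher. In these settings the share of OXPHOS genes called higher was thus not above that of all genes. DESeq2 gave 31 higher and 1 lower (5631 calls among all genes, against 3178). Leaving out 1 animal gave 1 to 27 OXPHOS genes higher, 0 to 1 lower, and 554 to 6409 calls among all genes. Added after seeing the data, edgeR's older quasi-likelihood method gave 12 higher. For pieces, DESeq2 called 2 over all animals, 4 in SB animals and 5 for the difference between genotypes, against 0 each. Leaving out 1 animal gave 0 over all animals, 0 to 12 in SB animals, 0 to 13 in controls and 0 to 7 for the difference. Without the replicate block, which pairs pieces of a spleen, 0 OXPHOS genes were called in each piece test. SB and control animals are not linked by any label, so they were not paired. With 3 animals a genotype and a spread among SB animals that most genes share, changes of 2-fold or less can be missed. Larger changes can be missed as well: on simulated data at the whole-table spread, 22.5% of 4-fold changes were recovered.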
